A study of Mus musculus with 7 samples.

Results

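Arhgap15, Npsr1, Nap1l3, Magi1 and RP23-407N2.2 are 5 of the 27998 genes in the single-cell count table, and they were followed across every cluster of oligodendrocyte lineage cells (OLCs) and every library of the adult mouse cortex. They were taken by symbol. The symbols themselves were chosen by their ratio between ectopic and control cells in the mature oligodendrocyte class MOL5/6, so their levels in that contrast are a description and support nothing further. All animals were adults of P90 on the C57BL/6-B6CBA background, with motor and cingulate cortex as the labelled regions, and all carried Emx1-Cre and the Sox10-GFP-tdTom reporter. Emx1-Cre acts in the dorsal forebrain lineage and the reporter is driven by Sox10, so that OLCs of dorsal origin turn tdTom+ and those of ventral origin stay GFP+. Control dOLCs were the tdTom+ cells and control vOLCs the GFP+ cells of Emx1-Cre:Sox10-GFP-TdTom mice. Ectopic vOLCs were the GFP+ cells of mice that carried Sox10-GFP-DTA in addition, which directs diphtheria toxin A to OLCs of the Emx1-Cre lineage. Each population was 1 library. The control genotype stood for 4 mice and the ablated one for 2, and animals pooled in a library cannot be told apart. There was therefore no test between conditions, and every interval below is a 95% interval that covers counting error only.

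The dorsal control library held 5804 cells, the ventral control library 925 and the ectopic library 2562 after the quality control of the study, with median depths of 3489.5, 5022 and 5318.5 UMIs (unique molecular identifiers, 1 per counted transcript) per cell. Between 6 and 24 of the kept cell barcodes recurred between a pair of libraries. MOL5/6, the sum of clusters MOL5/6a to MOL5/6d of the deposited annotation, held 3777, 561 and 1842 cells. The MOL5/6 markers Ptgds, Grm3, Car2, Il33 and Apod together reached between 41230 and 53580 CPM (counts scaled to the total UMIs of the cells pooled) in MOL5/6 by library, between 27510 and 30940 CPM in the MFOLb, MOL1 and MOL2 clusters and between 4493 and 7953 CPM in OPCs. Not all of them set MOL5/6 apart, since in control dOLCs Apod was at 3676 CPM in MOL5/6 and 6613 CPM in the other clusters, and Car2 at 5751 and 5874 CPM. The MOL2 markers Klk6 and Hopx together were at 25.0 to 60.3 CPM in MOL5/6 and at 352 to 1250 CPM in those clusters.

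Oligodendrocytes arise from precursors (OPCs) through committed and newly formed stages (COP, NFOL) and a myelin-forming stage (MFOL) before they become mature oligodendrocytes (MOL), and MOL5/6 is the main mature class of the cortex. Small GTPases such as Rac1 shape the processes and sheaths of these cells, and they are switched off by GTPase-activating proteins. Receptors and scaffold proteins at the membrane pass signals from neurons and neighboring cells to the same machinery. Arhgap15 is a GTPase-activating protein for Rac. Npsr1 is the receptor of neuropeptide S, coupled to G proteins that raise cAMP and calcium. Magi1 is a scaffold with several PDZ domains at cell junctions, and Nap1l3 belongs to the nucleosome assembly proteins, which carry histones. RP23-407N2.2 bears the name of a bacterial artificial chromosome clone, and no function is given for it here.

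The 4 genes with an annotated position lay on 4 chromosomes of GRCm38 (mm10). Arhgap15 spanned 647.1 kb at chr2:43748824-44395953 on the plus strand, Npsr1 218.4 kb at chr9:24097996-24316398 on the plus strand, Magi1 608.5 kb at chr6:93675455-94283917 on the minus strand and Nap1l3 2.837 kb at chrX:122394565-122397401 on the minus strand. The start regions are shown of Arhgap15, which had the highest ectopic ratio of the 5, and of Npsr1, which had a higher level in MOL5/6 than in OPCs in every library. Each window holds the 250 bases before and the 50 bases after a RefSeq start on GRCm38.p6, plus strand. Capitals mark matches on either strand to ACAAAG and ACAATG (cores of SOX family sites), CAGCTG (an E-box) and TATAAA.
Arhgap15, first start, chr2:43748574-43748873: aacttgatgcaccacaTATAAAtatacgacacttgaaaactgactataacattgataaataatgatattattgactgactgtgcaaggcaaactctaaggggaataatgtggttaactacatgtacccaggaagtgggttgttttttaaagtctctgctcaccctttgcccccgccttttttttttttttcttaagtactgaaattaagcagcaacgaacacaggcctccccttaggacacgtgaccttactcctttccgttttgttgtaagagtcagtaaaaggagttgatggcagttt
Arhgap15, second start, chr2:43787105-43787404: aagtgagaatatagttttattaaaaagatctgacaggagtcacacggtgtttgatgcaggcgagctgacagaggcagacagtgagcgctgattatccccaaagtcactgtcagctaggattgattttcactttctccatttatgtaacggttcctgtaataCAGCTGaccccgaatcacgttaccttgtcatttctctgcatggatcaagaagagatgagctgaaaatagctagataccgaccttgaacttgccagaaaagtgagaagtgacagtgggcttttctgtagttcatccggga
Npsr1, chr9:24097768-24098067: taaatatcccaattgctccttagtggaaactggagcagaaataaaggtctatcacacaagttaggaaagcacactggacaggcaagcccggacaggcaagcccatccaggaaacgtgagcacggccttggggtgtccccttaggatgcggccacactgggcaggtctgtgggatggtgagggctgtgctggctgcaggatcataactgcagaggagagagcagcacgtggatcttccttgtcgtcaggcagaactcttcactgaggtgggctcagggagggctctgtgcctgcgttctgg
The first Arhgap15 window held 1 TATAAA, the second held 1 CAGCTG, and the Npsr1 window held none of the 4. Of 32851 such windows over all genes, 18.7% held ACAAAG, 12.6% ACAATG, 16.3% CAGCTG and 13.6% TATAAA. The Magi1 windows, at RefSeq starts inside the annotated span, held 1 ACAATG and 1 CAGCTG, and the Nap1l3 window had no match. The counts come from the 3′ ends of transcripts and do not tell which start was used. RP23-407N2.2 was matched to no annotated gene, so neither its position nor its sequence is given.

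In MOL5/6 cells, all 5 genes were higher in ectopic vOLCs than in either control library, by between 1.52-fold and 16.1-fold. Against control dOLCs, 10 genes of 5218 (0.192%) past the filter had a log2 ratio of 1 or more. The filter asked for 50 UMIs over both libraries and a UMI in 10% of the cells of at least one, which Arhgap15, Nap1l3 and RP23-407N2.2 met through the ectopic library alone. The 5 genes, selected on this contrast, were among them, and the others were Tubb3, Polr2f, Cyp2j12, Agmo and Gm10020, of which Tubb3, Agmo and Gm10020 are named after their values were seen. In the other direction 102 genes (1.95%) were at −1 or below. With TMM factors these counts were 22 higher and 46 lower, and with size factors 23 and 40. Among the 1899 genes higher than in both controls, Arhgap15 had rank 1, Tubb3 rank 2, RP23-407N2.2 rank 3, Npsr1 rank 4, Nap1l3 rank 5 and Magi1 rank 6. The next 2 were Polr2f, an RNA polymerase subunit, at a log2 ratio of 1.18, and Cyp2j12, a cytochrome P450, at 1.02.

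**Figure D1:**
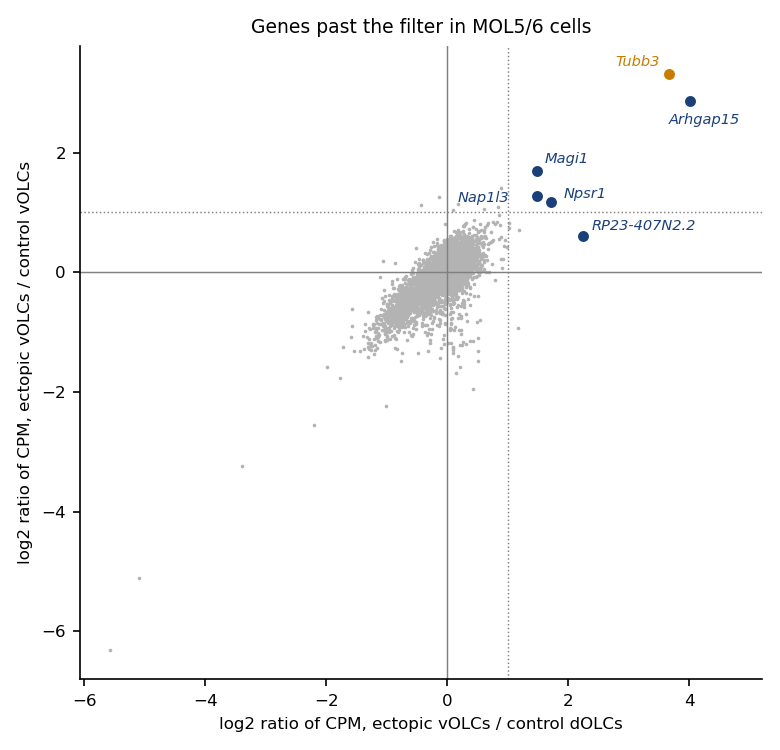
Log2 ratio of CPM of ectopic vOLCs to control dOLCs (x axis) and to control vOLCs (y axis) in MOL5/6 cells, 1 point per gene past the filter, with the 5 genes in dark blue and Tubb3 in orange. The axes share the ectopic library, dotted lines mark a log2 ratio of 1, and RP23-407N2.2 is the one of the 5 below the line on the y axis, at 0.61.

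Arhgap15 was scarce in control MOL5/6 cells. It had 23 UMIs in the dorsal control, 10 in the ventral control and 264 in the ectopic library, or 1.55 CPM (0.983–2.33), 3.42 CPM (1.64–6.30) and 25.0 CPM (22.1–28.2). Ectopic cells stood above both controls with no overlap of the counting intervals. The log2 ratio was 4.01 (3.39–4.69) to control dOLCs and 2.87 (1.96–3.94) to control vOLCs, whereas that of control vOLCs to control dOLCs, 1.14 (−0.09–2.27), had an interval that held 0. A UMI of Arhgap15 was found in 11.7% of ectopic MOL5/6 cells (10.3–13.3%), in 0.583% of control dOLCs and in 1.60% of control vOLCs.

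Npsr1 differed among all 3 libraries in the MOL5/6 sum. Its 514, 146 and 1197 UMIs, with the libraries in that order, gave 34.6 CPM (31.7–37.8), 50 CPM (42.2–58.8) and 113 CPM (107–120). Control vOLCs lay between control dOLCs and ectopic vOLCs, apart from both. The ectopic log2 ratio was 1.71 (1.56–1.86) to control dOLCs and 1.18 (0.93–1.44) to control vOLCs, and that between the controls was 0.53 (0.25–0.80). By subcluster the ratio between the controls was 0.90 (0.34–1.47) in MOL5/6a, which held 237 of the 561 ventral and 333 of the 3777 dorsal control cells. Its interval held 0 in MOL5/6b at 0.30, in MOL5/6c at 0.51 and in MOL5/6d at −0.17.

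Magi1 and Nap1l3 did not separate the controls. Magi1 had 52.8 CPM (49.1–56.6) in control dOLCs, 45.6 CPM (38.1–54.0) in control vOLCs and 147 CPM (139–154) in ectopic vOLCs. Nap1l3 had 11.9 CPM (10.2–13.8), 13.7 CPM (9.79–18.7) and 33.2 CPM (29.8–36.9) in the same order. For both genes the control intervals overlapped and the ectopic library stood above them. The log2 ratios to control dOLCs were 1.48 (1.35–1.60) for Magi1 and 1.48 (1.21–1.75) for Nap1l3, and to control vOLCs 1.69 (1.43–1.95) and 1.28 (0.80–1.79).

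For RP23-407N2.2 the ventral control lay closer to the ectopic library than to the dorsal control. It had 95, 58 and 320 UMIs, or 6.40 CPM (5.18–7.83) in control dOLCs, 19.9 CPM (15.1–25.7) in control vOLCs and 30.3 CPM (27.0–33.8) in ectopic vOLCs. Control vOLCs stood between the other libraries on the log2 scale, with a log2 ratio of 1.63 (1.14–2.12) between the controls and of 0.61 (0.20–1.04) between ectopic and control vOLCs. It was the one of the 5 whose ratio to control vOLCs stayed under 1; 12 genes of 5496 (0.218%) reached 1 in that contrast, Arhgap15, Npsr1, Nap1l3 and Magi1 among them. Between the controls, 58 genes of 5195 (1.12%) reached 1 and only Npsr1 and Magi1 of the 5 passed its filter, neither of them called; RP23-407N2.2, at 9.80% of control vOLCs with a UMI, missed the limit of 10% of cells.

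In OPCs the levels of Magi1, Npsr1 and Nap1l3 did not separate ectopic cells from controls. In 853 dorsal control, 121 ventral control and 330 ectopic OPCs, Magi1 had 38.9, 53.2 and 30.8 CPM, and its ectopic log2 ratio to control dOLCs was −0.34 (−0.92–0.22). Npsr1 was low in all 3 libraries, with 16, 1 and 7 UMIs and a ratio of −0.07 (−1.59–1.30) to control dOLCs. Nap1l3 had 18.7, 27.9 and 20.8 CPM, with a ratio of 0.16 (−0.60–0.88). All 3 intervals held 0. Arhgap15 had 3, 0 and 7 UMIs, and its ratio to control dOLCs, 2.35, had an interval from 0.22 to 4.93.

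RP23-407N2.2 was the one gene with a higher CPM in OPCs than in MOL5/6 in each library. It reached 29.3 CPM (23.2–36.7) in control dOLCs, 55.7 CPM (34.9–84.4) in control vOLCs and 64.9 CPM (51.3–81.0) in ectopic vOLCs. Both ventral libraries stood higher than the dorsal one, by log2 ratios of 0.93 (0.17–1.62) and 1.15 (0.67–1.62), while ectopic and control vOLCs did not separate at 0.22 (−0.48–0.97). In OPCs, 34 genes of 6110 (0.556%) reached a log2 ratio of 1 to control dOLCs, and RP23-407N2.2 was called of the 2 of the 5 past that filter, the other being Magi1. Ectopic against control vOLCs gave 303 genes of 5721 (5.3%) and control vOLCs against control dOLCs 140 of 5863 (2.39%), and in each of these contrasts 2 of the 5 passed the filter and neither was among the genes counted.

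**Figure D2:**
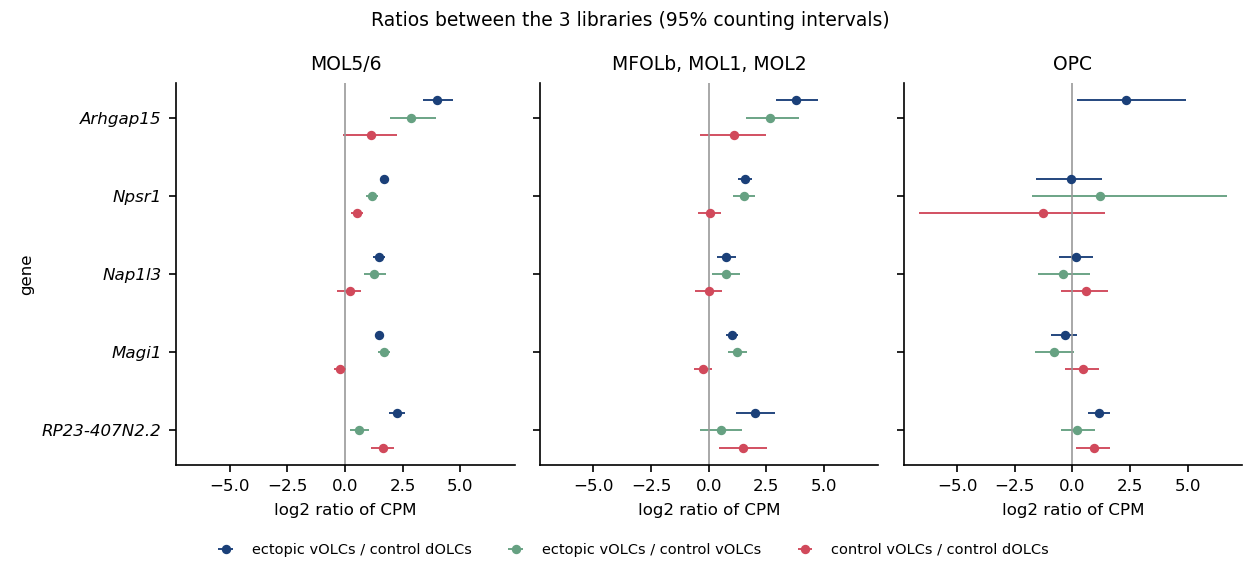
Log2 ratios of CPM between the 3 libraries (x axis) for each gene (y axis) in MOL5/6 cells, in the other myelin-forming and mature clusters (MFOLb, MOL1 and MOL2) and in OPCs, with 95% counting intervals and no point where a library had 0 UMIs. In OPCs the intervals of Npsr1, Nap1l3 and Magi1 all hold 0, while RP23-407N2.2 lies above 0 in both ratios to control dOLCs.

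In the MFOLb, MOL1 and MOL2 cells as 1 group, ectopic levels were higher than in control dOLCs for all 5 genes and than in control vOLCs for 4 of them, by intervals that left out 0. For MFOLb, MOL1, MOL2a and MOL2b, a grouping made after the clusters had been seen, with 1081, 227 and 357 cells, the log2 ratios to control dOLCs were 3.78 (2.93–4.75) for Arhgap15, 1.56 (1.26–1.87) for Npsr1, 0.76 (0.35–1.17) for Nap1l3, 1.02 (0.77–1.27) for Magi1 and 2.01 (1.19–2.87) for RP23-407N2.2. Against control vOLCs the ratios were 2.67 (1.62–3.92) for Arhgap15, 1.52 (1.05–2.01) for Npsr1, 0.74 (0.16–1.36) for Nap1l3 and 1.25 (0.86–1.66) for Magi1, while that of RP23-407N2.2, at 0.52 (−0.36–1.46), had an interval that held 0. Against control dOLCs, 11 genes of 5715 (0.192%) reached 1, among them Arhgap15, Npsr1 and Magi1 of the 4 of the 5 past the filter. These cells share their libraries with MOL5/6 and are no independent replicate of the animals.

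Levels also differed among clusters. Arhgap15 in ectopic vOLCs was highest in MOL2a at 40.7 CPM (27.0–58.8) and MOL2b at 37.0 CPM (25.3–52.3), followed by MOL1 at 32.8 CPM (19.1–52.5) and MOL5/6d at 28.0 CPM (24.0–32.6), none of which separated from its neighbor in the order. MOL5/6a, at 21.5 CPM (17.3–26.5), lay under MOL2a with no overlap. In control dOLCs no cluster of at least 20 cells went above 4.19 CPM, and in control vOLCs none went above 7.48 CPM.

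Npsr1 had a higher level in MOL5/6 than in OPCs in each library. In control dOLCs it was at 6.09 CPM (3.48–9.90) in OPCs, 4.01 CPM (0.486–14.5) in COP/NFOL/MFOLa and 24.0 CPM (12.4–42.0) in MFOLb, and between 28.7 and 35.9 CPM in the 7 mature clusters, whose intervals all overlapped. In ectopic vOLCs it was at 5.82 CPM (2.34–12.0) in OPCs and 71.6 CPM (42.4–113) in MFOLb, and it reached 124 CPM (114–136) in MOL5/6a. MOL5/6a stood above MOL2b at 79.8 CPM (62.1–101), and MOL5/6d at 109 CPM (101–117) overlapped with MOL5/6a.

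For Magi1 the ectopic level was above that of control dOLCs at the committed stage too. The 22 ectopic COP/NFOL/MFOLa cells had 16 UMIs, or 107 CPM (61.2–174), against 26.1 CPM (13.9–44.6) in 76 cells of control dOLCs, a log2 ratio of 2.04 (0.89–3.21). Against control vOLCs, with 4 UMIs in 13 cells, it was 1.22 (−0.41–3.26), with an interval that held 0. Among the mature clusters its ratio to control dOLCs was between 1.26 and 1.88 except in MOL2a, where 75.6 CPM (56.4–99.1) and 61.0 CPM (50.7–72.7) gave 0.31 (−0.19–0.79). Its highest ectopic level was 187 CPM (143–241) in MOL5/6c, from 60 UMIs in 63 cells, and this overlapped with MOL5/6d at 156 CPM (146–166).

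Nap1l3 varied among the clusters of control dOLCs. They had 37.7 CPM (29.0–48.3) in MOL2b, 21.3 CPM (15.4–28.7) in MOL2a and 10.0 CPM (7.61–12.9) in MOL5/6b. In MOL2b the ectopic level was 41.7 CPM (29.2–57.7), with a ratio to control dOLCs of 0.14 (−0.49–0.76), while in MOL2a it was 59.6 CPM (42.8–80.8), with a ratio of 1.48 (0.83–2.14). Within MOL5/6 the ratio was 1.10 (0.47–1.78) in MOL5/6a and 1.15 (0.69–1.64) in MOL5/6d. In MOL5/6b and MOL5/6c the ectopic library had only 2 and 3 UMIs, and the ratios of 0.53 and −0.22 had intervals that held 0.

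RP23-407N2.2 in control dOLCs was lowest in MOL2a at 1.98 CPM (0.540–5.07) and MOL2b at 1.80 CPM (0.371–5.25). Its ectopic level went from 9.26 CPM (4.00–18.2) in MOL2b to 47.7 CPM (24.7–83.3) in MFOLb among the clusters past the committed stage. In MOL1 the ectopic library did not stand above the controls. It had 9.65 CPM from 5 UMIs there, against 9.26 CPM from 8 in control dOLCs and 25.2 CPM from 4 in control vOLCs. In MOL5/6b control vOLCs stood above control dOLCs, at 27.1 CPM (17.7–39.7) against 5.76 CPM (3.99–8.05), and the ectopic level was 14.4 CPM (1.74–52.0) from 2 UMIs. The ectopic log2 ratio to control vOLCs in that subcluster was −0.91 (−4.03–1.09). It was 0.62 (−0.03–1.32) for MOL5/6a, −0.25 (−3.02–2.32) for MOL5/6c and 1.16 (−0.22–3.05) for MOL5/6d. Within single subclusters, ectopic and control vOLCs therefore did not separate for this gene.

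**Figure D3:**
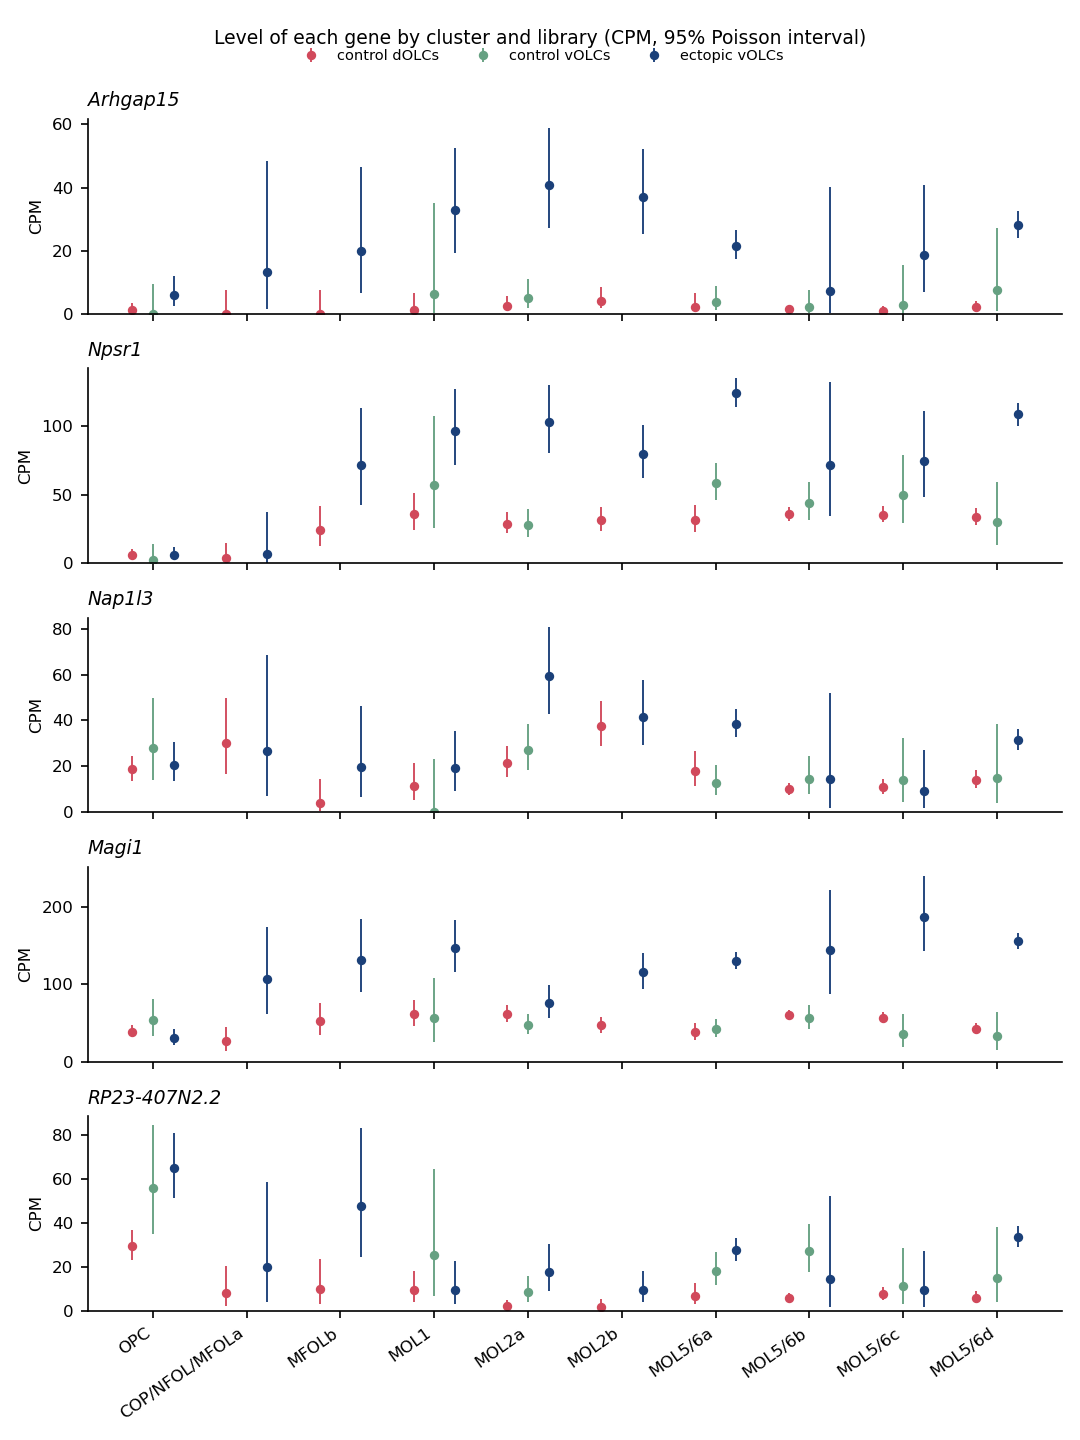
CPM of each gene (y axis, 1 panel per gene, linear scale from 0) in the clusters of each library (x axis), with points for the summed UMIs of a cluster and bars for 95% Poisson intervals; clusters with under 20 cells in a library are left out. The ectopic points of Arhgap15 and Npsr1 lie higher than those of both controls in each mature cluster, but their intervals overlap with control vOLCs in MOL1, MOL5/6b and MOL5/6c for both genes and in MOL5/6d for Arhgap15, and with control dOLCs in MOL5/6b, and OPCs carry the highest level of RP23-407N2.2 in every library.

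The libraries differed in how MOL5/6 was made up. From MOL5/6a to MOL5/6d the ectopic library had 900, 42, 63 and 837 cells, whereas control dOLCs had 333, 1947, 928 and 569 and control vOLCs 237, 236, 53 and 35. With the 4 subclusters given equal weight, the log2 ratio to control dOLCs was 3.48 for Arhgap15, 1.48 for Npsr1, 1.65 for Magi1, 1.71 for RP23-407N2.2 and 0.82 for Nap1l3, at 23.4 CPM in ectopic cells against 13.2 CPM. RP23-407N2.2 had a ratio of 0.26 to control vOLCs under equal weight. The clusters were built on expression in these same cells, and whether the 5 genes entered was not tested, so cluster sizes are not compared further.

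The 5 genes were found in unlike shares of cells. Of ectopic MOL5/6 cells, 52.9% (50.6–55.2%) had a UMI of Magi1, 45.1% (42.8–47.4%) of Npsr1, 15.3% (13.6–17.0%) of RP23-407N2.2 and 11.2% (9.83–12.8%) of Nap1l3. The matching shares in control dOLCs were 18.2%, 12.2%, 2.28% and 4.13%, and in control vOLCs 20.9%, 22.5%, 9.80% and 5.53%. Depth per cell differed, with MOL5/6 medians of 3491 UMIs in dorsal control, 5069 in ventral control and 5478.5 in ectopic cells. With each cell thinned to 1000 UMIs, the ectopic shares were 13.7% for Magi1, 10.2% for Npsr1, 2.82% for RP23-407N2.2, 2.71% for Nap1l3 and 2.50% for Arhgap15. In the same order, thinned control dOLCs gave 5.56%, 3.44%, 0.741%, 1.03% and 0.106%, and thinned control vOLCs 3.74%, 4.99%, 3.03%, 1.60% and 0.178%. All thinned ectopic shares were above those of both controls but that of RP23-407N2.2, which was below control vOLCs while its CPM was above, so that no order is read from its share.

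Ectopic OPCs give the level at which these transcripts were found in other cells of the same library. At a median of 3421.5 UMIs, 1.82% of them had a UMI of Arhgap15, 2.12% of Npsr1, 7.27% of Nap1l3, 10.9% of Magi1 and 21.2% of RP23-407N2.2. Thinned to 1000 UMIs these shares were 0.606%, 0.303%, 0.909%, 2.73% and 6.36%. Arhgap15 and Npsr1 were thus at 2.50% and 10.2% in ectopic MOL5/6 cells against under 1% in ectopic OPCs at equal depth.

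Nap1l3 was spread unevenly over cells. Of the 207 ectopic MOL5/6 cells with a UMI of it, 37 had 3 or more and the highest count was 7, with a mean of 1.70. Arhgap15, found in a like number of 216 cells, had 12 with 3 or more and a mean of 1.22. In the 281 cells with RP23-407N2.2 only 4 had 3 or more. The 1% of ectopic MOL5/6 cells with most UMIs of the gene, 19 cells, held 25.9% of the UMIs of Nap1l3, against 20.1% for Arhgap15 and 5.35% for Magi1. Nap1l3 is X-linked. The Y-linked genes Ddx3y, Eif2s3y, Uty and Kdm5d were at 0 UMIs in MOL5/6 of all 3 libraries and Xist was at 968, 812 and 893 CPM, so that no difference in sex between the libraries was seen.

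The genes met in the same cells about as often as their single shares give. In ectopic vOLCs, 753 of 1842 MOL5/6 cells (40.9%, 38.6–43.2%) had UMIs of 2 or more of the 5, 39 had 4 and 3 had all 5, and 359 (19.5%) had none. In control dOLCs 4.05% (3.45–4.73%) and in control vOLCs 11.9% (9.38–14.9%) had 2 or more. The product of the single shares, taken within each cluster and each of 5 depth classes, gave 769.4 cells for the ectopic library, 166.5 for the 153 of control dOLCs and 61.2 for the 67 of control vOLCs. Thinned to 1000 UMIs, 59 ectopic cells (3.2%) had 2 or more against 58.8 from the single shares within clusters. No excess of joint detection over single detection was therefore seen at this depth.

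Most pairs behaved alike. Npsr1 and Magi1 met in 466 ectopic MOL5/6 cells, with 456.5 from their single shares, and Arhgap15 met Npsr1 in 114, with 106.4, and Magi1 in 129, with 124.3. The ratio of cells seen to cells given by the single shares was between 0.90 and 1.15 for 9 of the 10 pairs. The exception was Arhgap15 with RP23-407N2.2, at 58 cells against 40.2, a ratio of 1.44. In MFOLb, MOL1 and MOL2 of the ectopic library that pair met in 11 cells, with 5.51 from the single shares, and in ectopic OPCs in 3, with 1.54. Thinned, it met in 0 MOL5/6 cells, with 1.34, and in 2 of the other myelin-forming and mature cells, with 0.291, which are too few to read.

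**Figure D4:**
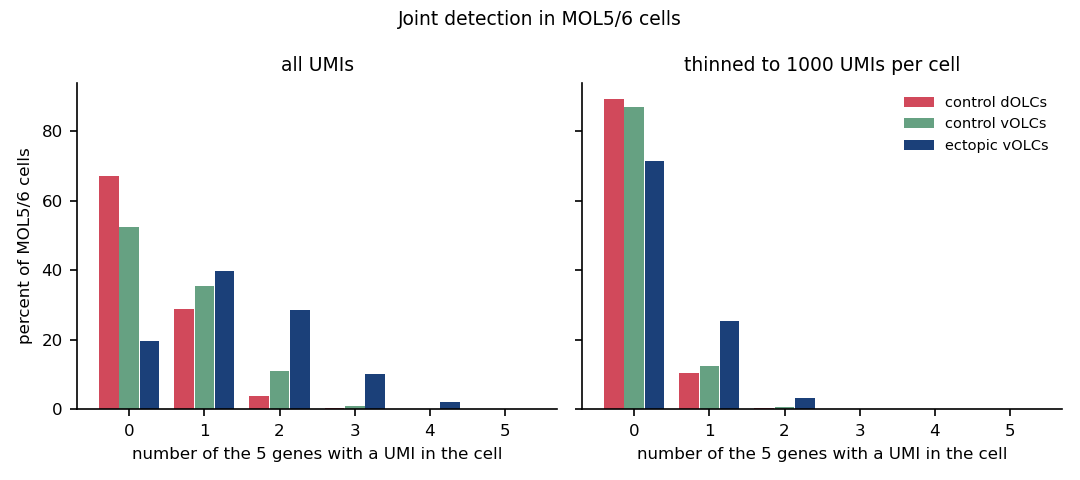
Percent of MOL5/6 cells (y axis) by the number of the 5 genes with a UMI in the cell (x axis), for all UMIs (left) and with each cell thinned to 1000 UMIs (right), bars colored by library. The share of cells with none of the 5 is 67.1%, 52.6% and 19.5% for dorsal control, ventral control and ectopic cells, and 89.4%, 87.0% and 71.4% after thinning.

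In the lists given here of relatives and partners of these genes, none of those past the filter reached a log2 ratio of 1. Over all genes past the filter only 10 of 5218 (0.192%) did. An absence from lists of this size is thus close to that share, and nothing about the lists is read from it. The lists were chosen with earlier results of these data known, and scaling by TMM or size factors adds 0.17 or 0.19 to every ratio given for them, so that ratios less than that below 0 then lie above it. Of 30 genes around Rac, 16 passed the filter in MOL5/6 and none had a log2 ratio of 1 or more to control dOLCs, with a median of −0.18 beside −0.03 over all genes. Dock5, a Rac exchange factor, was at −1.28 (−1.49 to −1.06) and Prex1, another, at −0.94 (−1.07 to −0.81), while the GTPases Cdc42, at 0.36 (0.30–0.42), and Rhog, at 0.18 (0.12–0.24), were the highest.

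For Npsr1, the ligand was scarce. Nps, neuropeptide S itself, had 2, 1 and 3 UMIs in MOL5/6 of the dorsal control, ventral control and ectopic libraries. None of 30 other neuropeptide receptors was found in 10% of the cells of a library, as the filter asked. The most UMIs were those of the neurotensin receptor Ntsr2, with 344, 45 and 184 in the same order, and the endothelin receptor Ednrb had 184, 9 and 46; both are named after their values were seen. Of the 26 genes of the ligand and the G protein, cAMP and calcium route, 11 passed, none of the 11 reached 1 and the median was −0.21. Itpr1, a calcium release channel named after its values were seen, did not pass and had 53 UMIs in ectopic cells and 32 in control dOLCs, or 5.01 and 2.16 CPM, which is a log2 ratio of 1.22 (0.56–1.90), past 1. Gnaq, the alpha subunit that couples receptors to phospholipase C, was at −0.99 (−1.14 to −0.84) and Creb1, a factor activated by cAMP, at −0.98 (−1.22 to −0.74). Gnas, the alpha subunit that stimulates adenylyl cyclase, was at 0.27 (0.22–0.33) and Prkaca, a catalytic subunit of protein kinase A, at 0.05 (−0.09–0.20).

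The family of Magi1 was as follows. Of 22 other membrane-associated guanylate kinases and related scaffold proteins, 8 passed and all 8 had intervals below 0, with a median of −0.47. Of all 5218 genes, 36.1% had an interval below 0, and genes that span 200 kb or more had a median of −0.38. Dlg1, a scaffold of cell contacts, was the lowest at −0.92 (−1.10 to −0.76), and the 2 highest were Mpp5, at −0.14 (−0.25 to −0.03), and Cacnb4, at −0.34 (−0.46 to −0.21). Of 14 binding partners of MAGI proteins in the table, 7 passed, with a median of −0.65. The adhesion receptor Adgrb1 was at −1.16 (−1.43 to −0.89) and the polarity protein Pard3 at −0.79 (−0.97 to −0.61), while Cldn11, the claudin of myelin tight junctions, was at 0.29 (0.28–0.31) and Jam3 at −0.01 (−0.05–0.04). The nucleosome assembly family of Nap1l3 was close to level, with 7 of 10 past the filter and a median of 0.01. Nap1l5, at 0.39 (0.31–0.46), and Nap1l1, at 0.17 (0.05–0.29), were its highest members and Set, at −0.30 (−0.41 to −0.19), and Tspyl1, at −0.18 (−0.36 to −0.01), its lowest.

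The chromosome neighbors past the filter had lower ratios than the genes they lie beside. Of the 24 protein-coding genes taken, 3 on each side of the 4 genes with a position, most did not pass. Those that passed were Ppp6c, Lrp1b, Zeb2, Rp9, Dpy19l1 and Pcdh11x. None of them had a log2 ratio above 0.09, beside a median of −0.03 over all genes. Of the neighbors that did not pass but had at least 3 UMIs in both libraries, Slc25a26, Pabpc5 and Cldn34c1 lay above 0.09. Around Arhgap15, Lrp1b was at 0.09 (0.004–0.17), Gtdc1 at −0.22 (−0.54–0.10), Zeb2 at −0.30 (−0.35 to −0.25), Ppp6c at −0.19 (−0.38 to −0.01) and Acvr2a at −0.51 (−1.36–0.30), and Kynu had no UMI. Around Npsr1, Dpy19l1 was at −0.26 (−0.32 to −0.20), Rp9 at 0.06 (−0.10–0.23) and Bbs9 at −0.43 (−0.97–0.09), and Bmper, Dpy19l2 and Cypt4 had between 0 and 3 UMIs. Around Magi1, Slc25a26 was at 0.11 (−0.23–0.44), Lrig1 at −0.98 (−1.70 to −0.30) and Kbtbd8 at −0.87 (−1.88–0.05), while A730049H05Rik, Gm15737 and Adamts9 had at most 1 UMI. Around Nap1l3, Cldn34c1 was at 0.51 (0.16–0.86), Pabpc5 at 0.37 (−0.89–1.62) and Pcdh11x at 0.02 (−0.20–0.25), and H2afb3, Gm17521 and Srsx had none. The antisense genes Arhgap15os and Gm15600, which overlap Arhgap15 and Npsr1, had 0 and 1 UMIs in ectopic MOL5/6 cells.

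**Figure D5:**
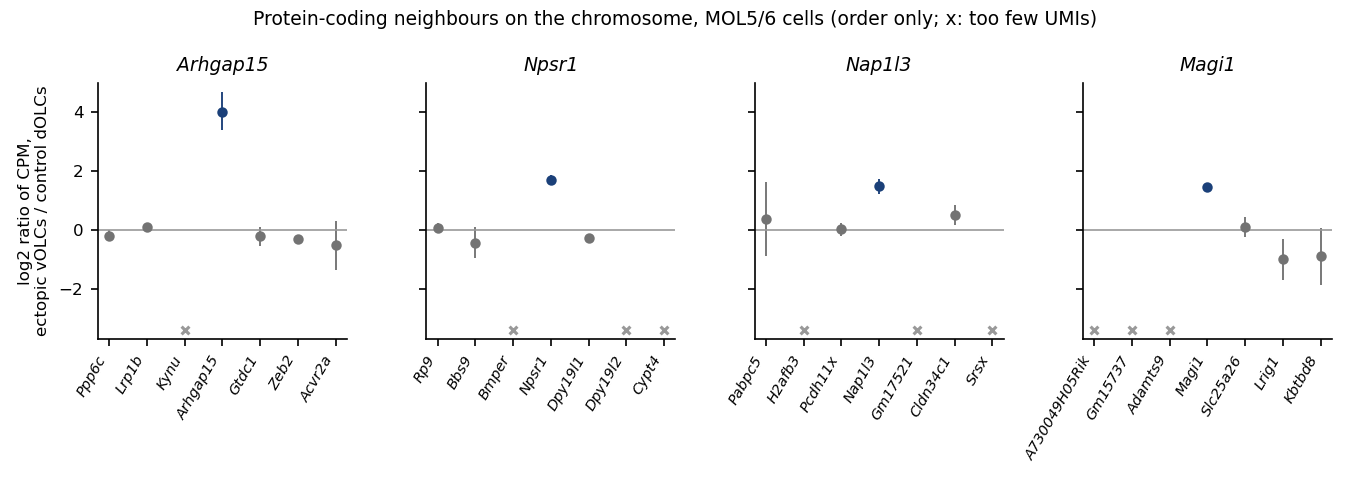
Log2 ratio of CPM of ectopic vOLCs to control dOLCs in MOL5/6 cells (y axis) for each gene (dark blue) and the 3 protein-coding genes on each side of it in chromosome order (gray), with 95% counting intervals; a cross marks under 3 UMIs in either library. The highest neighbor drawn is Cldn34c1 beside Nap1l3, at 0.51, against 1.48 for Nap1l3.

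Long genes had a lower median ratio than all genes with a span. The 236 genes past the filter with a span of 200 kb or more had a median log2 ratio to control dOLCs of −0.38, against −0.03 for the 5071 genes with a span. Of these 236, 4 (1.69%) reached 1, against 9 (0.18%) of the 5071. Of the 4, 3 were Arhgap15, Magi1 and Npsr1, which were selected on this ratio.

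Likeness over the lineage was taken from Pearson's r of log2(CPM + 1) over 22 pools of 1 cluster and library with at least 50 cells, among 9539 genes. The pools share 3 libraries and differ in depth, so the r values are a description. The pools also include ectopic and control cells of the main mature class, and the followed genes were selected on the ratio between these. Positive r among those genes, and with Tubb3, which ranked high on the same ratio, is therefore partly fixed by the selection. The size of that part was not tested. Arhgap15 was most like Tubb3, a neuronal beta-tubulin, at 0.90, then Prim2, a primase subunit, at 0.83 and Pop4, a ribonuclease P subunit, at 0.83. Npsr1 was most like Spock1, a secreted proteoglycan, at 0.93, Eef1a1, an elongation factor, at 0.92 and Wfdc18 at 0.91. Magi1 was most like Dnah14, an axonemal dynein, at 0.75, Arhgap15 at 0.75 and Wfdc18 at 0.74. Nap1l3 was most like the copper transporter Slc31a2 and Praf2, both at 0.82, and Cdc42 at 0.78. RP23-407N2.2 was most like Rnaset2b at 0.82, the class I histocompatibility gene H2-K1 at 0.81 and Snx10 at 0.78. Among themselves, Arhgap15, Npsr1 and Magi1 had r between 0.70 and 0.75. Nap1l3 had 0.51 with Arhgap15 and 0.07 with Npsr1, and RP23-407N2.2 had between −0.22 and 0.14 with the other 4.

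The summed neuron, astrocyte and microglia markers were below their control dOLC level in ectopic MOL5/6 cells. Within the lineage, the 4 OPC markers summed to 69.4, 38.7 and 27.9 CPM in dorsal control, ventral control and ectopic MOL5/6 cells, the 4 markers of newly formed cells to 91.7, 76.0 and 42.5 CPM and the MOL2 markers to 25.0, 60.3 and 28.4 CPM, and the part of these cells in the results was not tested. The 6 neuron markers summed to 19.7 CPM in dorsal control, 8.56 CPM in ventral control and 11.5 CPM in ectopic cells, the 5 astrocyte markers to 192, 155 and 146 CPM, and the 6 microglia markers to 31.4, 35.6 and 29.9 CPM, of which P2ry12 was at 0 in all 3 libraries and Csf1r at 0 in both ventral ones. Arhgap15 is also known from lymphocytes, and the lymphocyte markers Cd3e, Cd79a and Ptprc were at 0 in ectopic MOL5/6. The 3 endothelial markers summed to between 1.99 and 6.17 CPM and the 2 mural markers to at most 0.404 CPM. Of ectopic MOL5/6 cells with Arhgap15, 6.94% had a neuron marker and 19.0% a microglia marker, against 6.21% and 15.3% of those without it, and an astrocyte marker was found in 58.8% and 50.4%; the cells with Arhgap15 were also deeper, with medians of 6807.5 and 5305.5 UMIs. The summed CPM of neuron markers was 11.1 in cells with and 11.6 in cells without Arhgap15, and that of astrocyte markers 151 and 145. For RP23-407N2.2 the sums of neuron markers were 15.6 and 10.7, and the part of these cells in its level was not tested.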

How the data were processed

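Cortical OLCs sorted by fluorescence were profiled with 10x Genomics 3′ v2 chemistry in 3 adult libraries, and 4 newborn samples were not analysed here. The authors deposited raw UMI counts per gene and barcode, per the submitters' processing notes made with Cell Ranger 2.1.1 on mm10, with Seurat 3 and Seurat 4.0 also named. The authors kept barcodes with over 200 and under 3000 genes and at most 15% mitochondrial counts, and the study's methods describe sctransform values and Leiden clusters. Their cluster names and kept cells (9291 of 10081 barcodes) were used, and 8 other annotation columns were not. No doublet caller was run.

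UMIs were summed per library and cluster and divided by the pool's total (CPM). With 1 library per condition no test was made. Intervals at 95% are Poisson for CPM, exact binomial for ratios and Clopper-Pearson for shares, with a floor of 3 counts. Ratios across all genes used a minimum of 50 UMIs over both libraries and 10% of cells in at least one. Cells were thinned to 1000 UMIs to compare shares. Ratio and interval code was tested on simulated data. The genes and lists were chosen with earlier results of these data known. Named were the 5 genes, the next 2 in rank, the 3 most alike by Pearson's r (pools of at least 50 cells, genes of at least 200 UMIs, pseudocount 1), the 2 highest and 2 lowest of each list and 3 neighbors on each side. Results of 1 list and of 1 gene of another are not reported here. Positions came from GENCODE M21 and start windows from RefSeq. Alternatives used edgeR 4.0.16 TMM and DESeq2 1.42.0 size factors, other filters, cells, subclusters and controls. Python 3.11.15, numpy 2.4.6, pandas 2.3.3, scipy 1.17.1, matplotlib 3.10.9 and R 4.3.3 were used.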

Additional observations from a re-analysis of the deposited data

Results flagged for a closer look

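The barcodes that quality control removed carried the 5 genes as well, and were used in no comparison above. They numbered 388 for the dorsal control, 114 for the ventral control and 288 for the ectopic library, most of them for 3000 genes or more (280, 66 and 266), with median depths of 10333.5, 9289.5 and 11305 UMIs. In the removed ectopic barcodes Arhgap15 was at 24.9 CPM (19.8–30.8), against 1.63 and 6.62 CPM in the removed barcodes of the dorsal and ventral controls. Npsr1 was at 51.8 CPM (44.4–60.1) against 12.2 and 19.9 CPM. Nap1l3 was at 38.6 CPM (32.3–45.9) against 22.5 and 13.2 CPM. Magi1 was at 109.3 CPM (98.4–121) against 38.0 and 39.7 CPM. RP23-407N2.2 was at 29.0 CPM (23.6–35.4) against 10.9 and 12.1 CPM. All 5 were above the control barcodes, and these barcodes have no cluster name, so their cell types are not given.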

How the results depend on the processing

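No paired analysis was possible because there was only 1 library for every condition. Of 135 alternatives to the main values, 89 stayed within the counting interval or, for a count of genes, close to it, 45 moved outside, and 1 gave the other sign to a ratio whose interval did not hold 0; the cause was not tested. In OPCs, where the intervals held 0, the sign also changed in 2 alternatives for Nap1l3 and 3 for Npsr1. The median of all genes went from −0.03 to 0.14 with TMM factors and 0.16 with size factors, and in MOL5/6 the ratio to control dOLCs became 1.88 and 1.89 for Npsr1 and 1.65 and 1.66 for Magi1. With control vOLCs as the control it was 2.87 for Arhgap15, 1.18 for Npsr1, 1.69 for Magi1 and 0.61 for RP23-407N2.2. With equal weight for subclusters it was 1.48 for Npsr1, 0.82 for Nap1l3, 1.65 for Magi1 and 1.71 for RP23-407N2.2. Within MOL5/6a it was 3.26 for Arhgap15, 1.98 for Npsr1, 1.10 for Nap1l3 and 1.77 for Magi1. Within MOL5/6b, with 42 ectopic cells, it was 2.24 for Arhgap15 (1 ectopic UMI), 1.02 for Npsr1, 0.53 for Nap1l3 (2 ectopic UMIs), 1.27 for Magi1 and 1.32 for RP23-407N2.2 (2 ectopic UMIs). The intervals of Arhgap15, Npsr1 and Nap1l3 held 0 in that subcluster. Within MOL5/6c, with 63 ectopic cells, it was 1.09 for Npsr1, −0.22 for Nap1l3 (3 ectopic UMIs), 1.73 for Magi1 and 0.32 for RP23-407N2.2 (3 ectopic UMIs). Within MOL5/6d it was 1.15 for Nap1l3 and 1.88 for Magi1. Without the 1% of cells with most UMIs of the gene it was 1.86 for Npsr1 and 3.03 for RP23-407N2.2. For RP23-407N2.2 that step took out 49.5% of the UMIs of control dOLCs and 13.1% of those of ectopic vOLCs. For Arhgap15 it took out all UMIs of control dOLCs and left no ratio. With thinned cells the ratio was 1.91 for RP23-407N2.2.

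In MFOLb, MOL1 and MOL2 it was 0.76 for Nap1l3 and 1.02 for Magi1. This population, and leaving out barcodes found in 2 libraries, which moved no ratio outside its interval, were chosen after seeing the data. In OPCs, thinned cells gave −1.50 for Nap1l3, from 3 ectopic cells with a UMI and 22 of control dOLCs. Control vOLCs as the control gave 0.22 for RP23-407N2.2 in OPCs. Thinned ectopic shares were 2.50% for Arhgap15, 10.2% for Npsr1, 2.71% for Nap1l3, 13.7% for Magi1, 2.82% for RP23-407N2.2 and 3.2% for 2 or more genes. With at most 10% mitochondrial counts the shares were 55.3% for Magi1 and 44.2% for 2 or more genes. The 10 genes past a log2 ratio of 1 became 22 with TMM factors, 23 with size factors, 1036 with no filter beyond 1 UMI and 4 in thinned cells, where 2 of the 5 passed the filter.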
